A study of Mus musculus with 5 samples.

Results

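The NF-kB family and its feedback inhibitors were followed in iNKT cells of mouse liver through 10 genes, which are the 10 rows, of 55364 in each table, whose Ensembl gene ID carries the symbol Nfkb1, Nfkb2, Rela, Relb, Rel, Nfkbia, Nfkbib, Nfkbid, Nfkbiz or Tnfaip3. All 10 were found. Invariant natural killer T (iNKT) cells are T cells that recognise lipids on CD1d, and here they were sorted for binding of PBS57-loaded CD1d tetramers together with surface T cell receptor beta chain. The 2 healthy libraries came from livers of wild-type mice given PBS. The 3 HCC libraries came from livers with hepatocellular carcinoma, of wild-type mice given a single intraperitoneal injection of 25 mg/kg of the liver carcinogen diethylnitrosamine (DEN) at 15 days of age. The labels describe male C57BL/6 mice killed at 38 to 42 weeks, and the design text counts a separate mouse for each library, although the table headings of HCC 2 and HCC 3 share a number. Levels are in CPM, the deposited value of a gene once its table's own total is scaled to 1000000. The libraries are of 3' ends, in which a transcript gives a tag at its end whatever its length, so CPM were compared between genes without division by length.

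NF-kB factors are dimers of 5 subunits. RelA, RelB and c-Rel (encoded by Rela, Relb and Rel) carry activation domains, whereas p50 and p52 are processed from the products of Nfkb1 and Nfkb2. In resting T cells the IkB proteins hold the dimers in the cytoplasm. Signals from the T cell receptor or from TNF, IL-1 and IL-18 receptors lead, through the IKK kinase complex, to destruction of IkB and entry of the dimers into the nucleus. Several inhibitors are themselves NF-kB target genes, which closes a feedback loop. They include IkB alpha (Nfkbia) and A20 (Tnfaip3), an enzyme that edits ubiquitin chains upstream of IKK.

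Of the 10 genes, 7 are in the RefSeq promoter table, with 12 promoters, and Nfkb1, Relb and Nfkbiz are not. Each promoter runs from 250 bases before a transcript start to 50 bases after it. The kB consensus, the motif bound by NF-kB dimers (GGG, a purine, any 2 bases, 2 pyrimidines, CC), was searched on both strands, and matches were allowed to overlap. It occurred in 7 of the 12 promoters, from 5 genes (Nfkbia, Tnfaip3, Nfkbid, Rel and Nfkb2), and in 8.5% of all 32851 promoters of this length. Overlapping promoters were not merged in either count. The Nfkb2 promoters at 46305445 to 46305744 and 46305680 to 46305979 of chromosome 19 overlap, and the same match is counted in both. The 7 promoters are thus not separate observations. A match is a description of the letters and not of binding. Those of Nfkbia and Rela are shown because these genes ranked the 5 libraries in the same order, and that of Tnfaip3 because this target gene was barely detected. Capitals mark the matches. In Nfkbia the match begins 29 bases before the start, in Tnfaip3 the matches begin 125 and 12 bases before it, and the Rela promoter holds none. The sequences are from RefSeq, assembly GRCm38.p6, at chr12:55492598-55492897 (minus strand), chr19:5637291-5637590 (plus strand) and chr10:19015361-19015660 (minus strand).
Nfkbia: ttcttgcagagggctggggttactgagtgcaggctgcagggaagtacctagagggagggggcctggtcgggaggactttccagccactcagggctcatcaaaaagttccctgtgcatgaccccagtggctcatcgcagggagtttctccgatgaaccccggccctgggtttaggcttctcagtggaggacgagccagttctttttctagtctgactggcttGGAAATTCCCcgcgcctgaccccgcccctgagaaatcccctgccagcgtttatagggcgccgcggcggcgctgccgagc
Rela: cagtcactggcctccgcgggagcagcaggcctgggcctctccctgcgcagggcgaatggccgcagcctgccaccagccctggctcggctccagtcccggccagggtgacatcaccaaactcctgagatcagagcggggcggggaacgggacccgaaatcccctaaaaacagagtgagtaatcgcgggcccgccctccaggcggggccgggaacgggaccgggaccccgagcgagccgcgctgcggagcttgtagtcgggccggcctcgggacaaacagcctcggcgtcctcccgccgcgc
Tnfaip3: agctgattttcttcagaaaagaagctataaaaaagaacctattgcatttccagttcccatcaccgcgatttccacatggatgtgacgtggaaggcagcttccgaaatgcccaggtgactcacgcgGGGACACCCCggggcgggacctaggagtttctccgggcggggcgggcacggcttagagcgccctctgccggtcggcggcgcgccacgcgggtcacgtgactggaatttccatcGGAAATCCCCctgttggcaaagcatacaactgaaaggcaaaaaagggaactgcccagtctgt

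The tables hold whole numbers, but these are not reads. In healthy 1 the values up to 400 all lay on steps of 2.65 rounded to the nearest whole number, although only 37.5% of whole numbers lie on such steps. In HCC 3 99.97% of the values up to 400 lay on steps of 1.39, on which 71.75% of whole numbers lie. Values in healthy 2, HCC 1 and HCC 2 piled up in the way that factors of 0.759, 0.706 and 0.44 give. Dividing by these factors puts the depth at about 837862 reads in healthy 1 and 2400347 in healthy 2, and at 2601066, 3903798 and 1352170 in HCC 1, 2 and 3. Healthy 1 was thus the shallowest library. There a single read is worth 1.19 CPM, and a count of 0 allows up to 3 reads, or 3.58 CPM, against 0.768 to 2.22 CPM in the other 4. Intervals of CPM and shares below are exact for these approximate reads and cover the counting error of reads only. Reads are not distinct molecules, so the intervals can be too narrow for transcripts. T cell markers were present in all 5 libraries, with Trac at 488 to 803 CPM and Cd3e at 178 to 283 CPM, whereas Zbtb16, which encodes the iNKT factor PLZF, was at 0 to 1.65 CPM. Klrb1c, which encodes NK1.1, was at 382 and 5.49 CPM in the healthy and at 465, 20.9 and 333 CPM in the HCC libraries, so healthy 2 and HCC 2 stood apart from the other 3. All 21 hepatocyte markers had higher means in HCC libraries, and they summed to 103 and 105 CPM in the healthy and to 161, 577 and 1320 CPM in the HCC libraries.

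The comparison of HCC with healthy livers was read first as levels. Nfkbia, the gene of IkB alpha, was the most abundant member in each library, at a mean of 148 CPM over the 5 libraries, above 90.4% of the genes tested. Rela came next by its mean, at 34.8 CPM, and its highest value, 49.5 CPM, stayed below the lowest of Nfkbia, 84.5 CPM. Rela was not second in each library. It lay below Relb in healthy 1 (21.6 against 25.2 CPM) and below Nfkb1 in HCC 2 (35.5 against 43.1 CPM), and was level with Nfkbib in HCC 3 (29.7 CPM). Nfkbib (19.5 CPM), Nfkb1 (16.9 CPM), Relb (13.6 CPM), Nfkbid (11.2 CPM) and Nfkb2 (11.1 CPM) followed, and each of these neighbours overlapped the next in its range over libraries. Rel, Tnfaip3 and Nfkbiz were at means of 2.54, 1.74 and 0.329 CPM, close to the limits that counts of 0 allow.

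**Figure D1:**
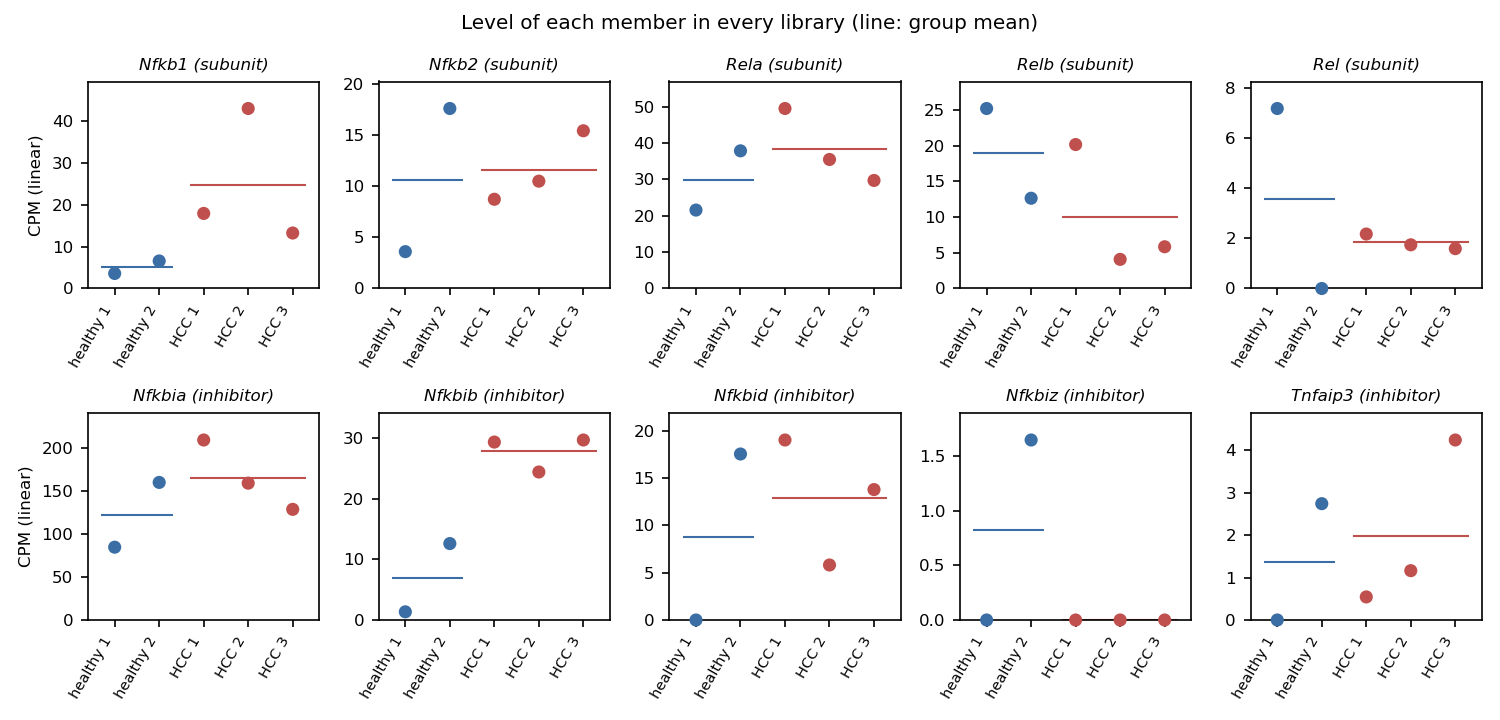
Level of each of the 10 genes in CPM (linear axes from 0, 1 scale per panel) in the 2 healthy (blue) and 3 HCC (red) libraries, with a line at each group's mean. Nfkb1 and Nfkbib are the genes whose 3 HCC points lie above both healthy points.

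In the test of HCC against healthy, 0 of 8602 genes were called by limma at a threshold of 0.05 on the adjusted p (0%). The smallest adjusted p was 0.284, and 345 genes (4.01%) had an unadjusted p under 0.05. Of the members 7 passed the filter of 5 CPM in 2 libraries and were tested, and 0 of them passed, with 2 (Nfkb1 and Nfkbib) at an unadjusted p under 0.05. Fold changes are differences in log2(TMM-scaled CPM + 2), HCC minus healthy, which understate the change of genes with low levels. The median over all tested genes was 0.08 on this scale. It was 0.18 with library totals only and 0.05 with median-of-ratios size factors, so differences of that size are those of the bulk of genes. In CPM, 2 of the 7 tested members had each HCC value above both healthy values, as had 12.9% of all tested genes, and 0 of 7 had each HCC value below both, as had 5.37%. After TMM scaling 2 members lay above (11.3% of genes) and 0 below (7.13%).

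Among the subunits, Nfkb1, the gene of p105 and its product p50 (ENSMUSG00000028163, chromosome 3, 135584655 to 135691547, mm10), was at 3.6 and 6.59 CPM in the healthy libraries and at 18.0, 43.1 and 13.3 CPM in HCC 1, 2 and 3. The groups did not overlap, and HCC 2 stood well above the other HCC libraries. The healthy values rest on 3 and about 16 reads, with intervals of 0.738 to 10.5 and 3.81 to 10.8 CPM. That of HCC 3, from about 18 reads, is 7.89 to 21.0 CPM and overlaps both. The group means were 5.09 ± 2.11 CPM (SD, n = 2) and 24.8 ± 16 CPM (SD, n = 3). In limma the log2 difference was 1.7 (SE 0.62, adjusted p = 0.961). It stayed between 1.28 and 2.00 when a library was left out, and the lowest of these, 1.28, came without HCC 2. Erythroid and B cell markers also had their highest sums in HCC 2, as had neutrophil (12.8 CPM) and endothelial and stellate cell markers (19.2 CPM). Of the 11 neutrophil markers, 7 were at 0 in all libraries, as were 4 of the 10 endothelial and stellate cell markers. The sums of iNKT and T cell markers and of hepatocyte markers were highest in HCC 3, and that of NK cell markers in HCC 1. Those of macrophage and Kupffer cell markers and of dendritic cell markers were highest in healthy 1. The sums of the T cell receptor, cytokine receptor and noncanonical routes and of the NF-kB targets, described below, were highest in HCC 2 too. Among the other lists below, the IKK sum was highest in healthy 2 (141 CPM). Those of other inhibitors (702 CPM) and of immediate-early and heat shock genes (1579 CPM) were highest in HCC 1. Erythroid markers (6 of 7 with higher means in HCC, Slc4a1 at 0 in all libraries) summed to 2975 and 2787 CPM in the healthy and to 7391, 17083 and 15384 CPM in the HCC libraries. B cell markers (7 of 9 with higher means in HCC, Pax5 at 0 in both healthy libraries) summed to 45.4 and 129 CPM and to 119, 208 and 141 CPM. The part of these markers, and of the hepatocyte markers above, in the level of Nfkb1 was not tested. In bulk RNA, more cells of a type and more RNA per cell cannot be told apart.

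Rela, the gene of the main activating subunit p65 (ENSMUSG00000024927, chromosome 19, 5637483 to 5648130), was at 21.6 and 37.9 CPM in the healthy and at 49.5, 35.5 and 29.7 CPM in the HCC libraries. The groups overlapped, with HCC 2 and HCC 3 between the healthy values and HCC 1 above them. The log2 difference in limma was 0.26 (SE 0.47, adjusted p = 0.969), and its 95% interval ran from -0.75 to 1.27. Without healthy 1 it was -0.046.

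Relb, the partner of p52 in the noncanonical pathway (ENSMUSG00000002983, chromosome 7, 19606217 to 19629438), was the only tested member with a lower fitted level in HCC. It was at 25.2 and 12.6 CPM in the healthy and at 20.1, 4.07 and 5.84 CPM in the HCC libraries. HCC 2 and HCC 3 lay below both healthy libraries, whereas HCC 1 lay between them. The log2 difference in limma was -1.06 (SE 0.70, adjusted p = 0.961), was negative under all 15 alternative settings, and ranged from -1.64 without HCC 1 to -0.54 without healthy 1.

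Nfkb2, the gene of p100 and its product p52 (ENSMUSG00000025225, chromosome 19, 46304320 to 46312385), was at 3.6 and 17.6 CPM in the healthy and at 8.71, 10.5 and 15.4 CPM in the HCC libraries. All HCC values lay between those of the healthy libraries, of which the lower rests on 3 reads. Its log2 difference was 0.26 (SE 0.68, adjusted p = 0.979 in limma) and turned to -0.59 without healthy 1. Rel, the gene of c-Rel (ENSMUSG00000020275, chromosome 11, 23736847 to 23770970), a subunit induced in activated lymphocytes, was at 7.19 and 0 CPM in the healthy and at 2.18, 1.75 and 1.59 CPM in the HCC libraries. It did not pass the filter. Its highest value rests on 6 reads (2.63 to 15.6 CPM).

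The subunits thus made up different mixtures in the libraries. Rela held 35.3 and 50.8% of the subunit reads in the healthy and 50.4, 37.6 and 44.9% in the HCC libraries, with no separation of the groups. Nfkb1 held 5.88% (95% interval 1.23 to 16.2) and 8.94% (5.20 to 14.1) in the healthy libraries, and 18.4% (13.8 to 23.7), 45.4% (40.3 to 50.6) and 20.2% (12.4 to 30.1) in HCC 1, 2 and 3. In HCC 2 Nfkb1 exceeded Rela, while in the other 4 libraries Rela exceeded Nfkb1. In healthy 1 Relb exceeded Rela, with 21 reads against 18. The 5 subunits summed to 61.1 and 74.6 CPM in the healthy and to 98.5, 94.9 and 65.8 CPM in the HCC libraries, or 67.9 ± 9.55 and 86.4 ± 17.9 CPM (SD, n = 2 and 3), and the groups overlapped through HCC 3.

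**Figure D2:**
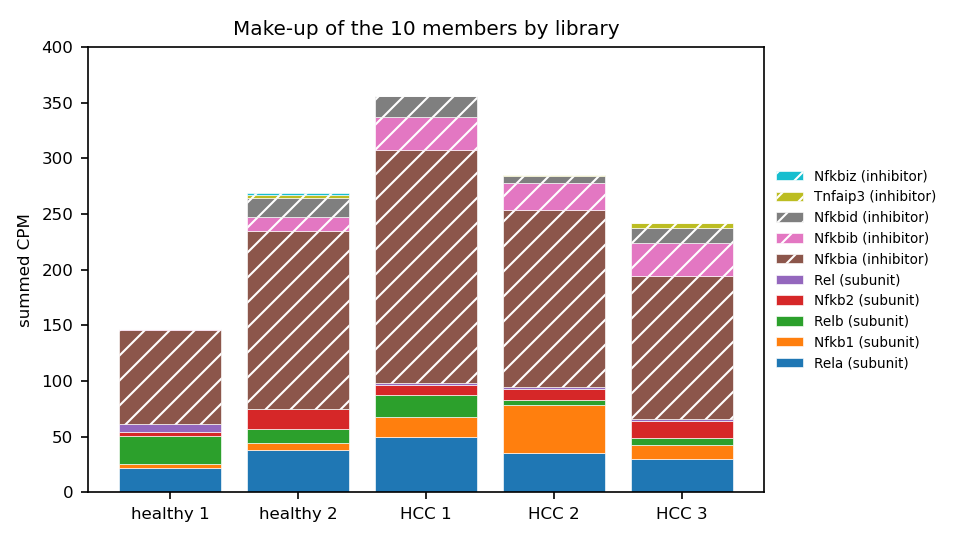
Summed CPM of the 10 genes in each library, stacked by gene, with subunits plain and inhibitors hatched. Nfkbia is the largest block in each library, and the block of Nfkb1 is taller in HCC 2 (43.1 CPM) than in the others.

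Among the inhibitors, Nfkbia (ENSMUSG00000021025, chromosome 12, 55489410 to 55492647) was at 84.5 and 160 CPM in the healthy and at 209, 159 and 128 CPM in the HCC libraries. Healthy 1 was the lowest and HCC 1 the highest, HCC 2 was level with healthy 2, and HCC 3 lay below it. The group means were 122 ± 53.2 CPM (SD, n = 2) and 165 ± 40.7 CPM (SD, n = 3). The log2 difference in limma was 0.36 (SE 0.40, 95% interval -0.49 to 1.21, adjusted p = 0.962), and it was -0.0088 without healthy 1.

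Nfkbib, which encodes IkB beta, a more slowly degraded inhibitor (ENSMUSG00000030595, chromosome 7, 28758251 to 28767512), was at 1.35 and 12.6 CPM in the healthy and at 29.4, 24.4 and 29.7 CPM in the HCC libraries. All HCC values lay above both healthy values and close to each other, with means of 6.99 ± 7.97 CPM (SD, n = 2) and 27.9 ± 2.96 CPM (SD, n = 3). The healthy values rest on 1 and about 30 reads, with intervals of 0.03 to 6.65 and 8.43 to 17.8 CPM. The log2 difference was 2.02 (SE 0.65, adjusted p = 0.961 in limma). By unadjusted p it stood at place 42 among the 8602 genes. Without healthy 1 the log2 difference was 1.00. Without healthy 2 it was 3.07 and passed (adjusted p = 0.0098 in limma), in a fit that called 456 of 8197 genes, 348 of them higher, and assumes that healthy 1 varies like the HCC libraries. Hepatocyte and erythroid markers also had sums in the 3 HCC libraries that exceeded those of the healthy pair, and their part in the level of Nfkbib was not tested. Nfkbib shares 778 bases with Sirt2 on the opposite strand, whose values of 48 and 49 in the healthy and 36, 47 and 11 in the HCC tables were not higher in HCC. How reads of the 2 strands were counted is not given in the sources used here.

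Nfkbid, the gene of the nuclear IkB protein IkBNS (ENSMUSG00000036931, chromosome 7, 30421732 to 30428746), was at 0 and 17.6 CPM in the healthy and at 19.0, 5.82 and 13.8 CPM in the HCC libraries. The groups overlapped, and HCC 2 and HCC 3 lay below healthy 2. The log2 difference of 1.11 (SE 0.90, adjusted p = 0.961 in limma) became -0.53 without healthy 1 and 2.75 without healthy 2. It was 0.081 with limma-voom and 1.97 with a pseudocount of 0.5 CPM. Tnfaip3 (ENSMUSG00000019850, chromosome 10, 19000910 to 19015657) was at 0 and 2.74 CPM in the healthy and at 0.544, 1.16 and 4.25 CPM in the HCC libraries, or at most 7 reads in any library. Nfkbiz, the gene of the inducible nuclear protein IkB zeta (ENSMUSG00000035356, chromosome 16, 55811375 to 55838899), had 4 reads in healthy 2 and a value of 0 in the other 4 libraries. In HCC 2 a value of 0 can hide 1 read, because of the rounding. Neither gene passed the filter, and neither was tested.

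**Figure D3:**
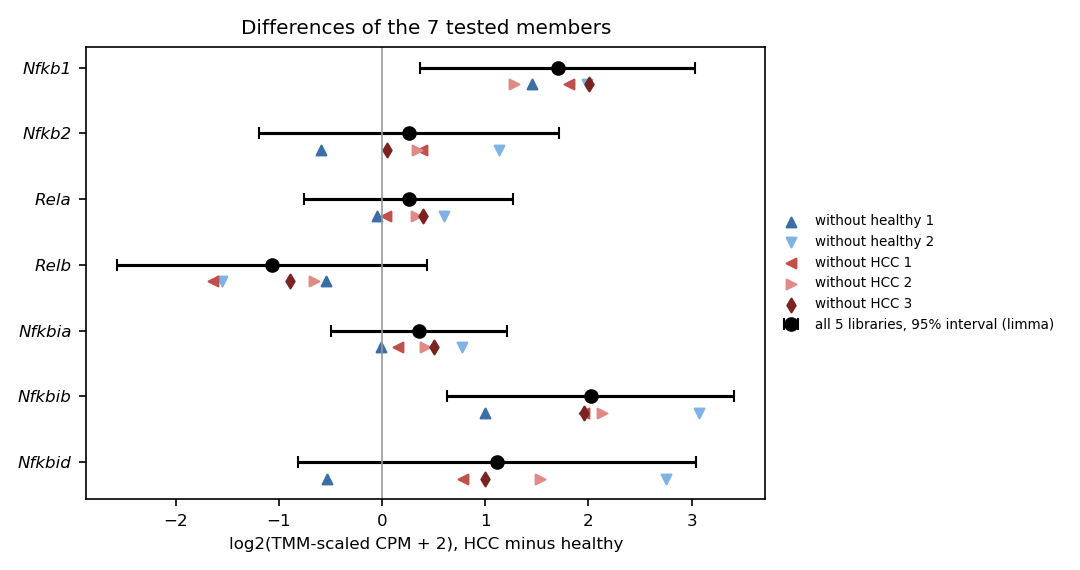
Difference between HCC and healthy libraries of the 7 tested genes in log2(TMM-scaled CPM + 2), as the limma estimate with its 95% interval (black) and, below it, the values with each library left out. The values without healthy 1 and without healthy 2 lie on opposite sides of the black point for each gene, 1.00 and 3.07 for Nfkbib. Apart from rescaling, these opposite sides follow from a healthy mean over 2 libraries and are not a result about the genes.

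Inhibitor reads as a share of the reads of all 10 genes were 58.5% (95% interval 49.3 to 67.3) in healthy 1 and 72.1% (68.5 to 75.6) in healthy 2. They were 72.4% (69.4 to 75.2), 66.8% (63.9 to 69.5) and 72.8% (67.6 to 77.5) in HCC 1, 2 and 3. Group means were 65.3 ± 9.78% and 70.6 ± 3.39% (SD, n = 2 and 3), and the difference of 5.31 percentage points was smaller than the pooled SD between libraries, 6.29. Without healthy 1 it was -1.61 points. Nfkbia held most of these reads. Without it the share was 1.92% in healthy 1, from 1 of 52 reads, 31.7% in healthy 2, and 33.1, 24.9 and 42.2% in HCC 1, 2 and 3. The 5 inhibitors summed to 85.9 and 194 CPM in the healthy and to 258, 190 and 176 CPM in the HCC libraries, so HCC 2 and HCC 3 lay below healthy 2.

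The measured proportion of Nfkbia to Rela was similar in the 5 libraries, a pattern singled out after their values were seen. The reads of Nfkbia were 3.94 and 4.21 times those of Rela in healthy 1 and 2, and 4.22, 4.46 and 4.35 times in HCC 1, 2 and 3, while the level of Nfkbia itself varied from 84.5 to 209 CPM. As a share of the pair, Nfkbia had 79.8% (69.9 to 87.5) in healthy 1, 80.8% (77 to 84.2) in healthy 2, and 80.8% (77.7 to 83.7), 81.7% (78.8 to 84.4) and 81.3% (75.4 to 86.3) in the HCC libraries. These intervals all overlapped. Likeness was measured as the root mean square difference, over the 5 libraries, between log2(CPM + 1) values centred on each gene's mean. It was 0.069 between Rela and Nfkbia, and 0 of the 1431 other named genes that averaged 50 CPM or more were closer to Nfkbia. The closest of these were Hspa8, a constitutive heat shock chaperone (0.072), Efr3a (0.081), Sdf2 (0.083) and Snord14e (0.093). Hspa8 was at 297 and 536 CPM in the healthy and at 817, 564 and 459 CPM in the HCC libraries. The other 8 members were much less like Nfkbia, from 0.579 (Nfkb2) to 1.28 (Rel). Rela itself, at a mean of 34.8 CPM, was below the bar of 50 CPM, so genes at its level were not ranked. Its value in healthy 1 rests on about 18 reads, with an interval of 12.7 to 34.0 CPM. With 5 libraries and such counts the likeness is a description. The libraries also differ in depth, with healthy 1 the shallowest and lowest for both genes, and the part of depth was not tested.

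**Figure D4:**
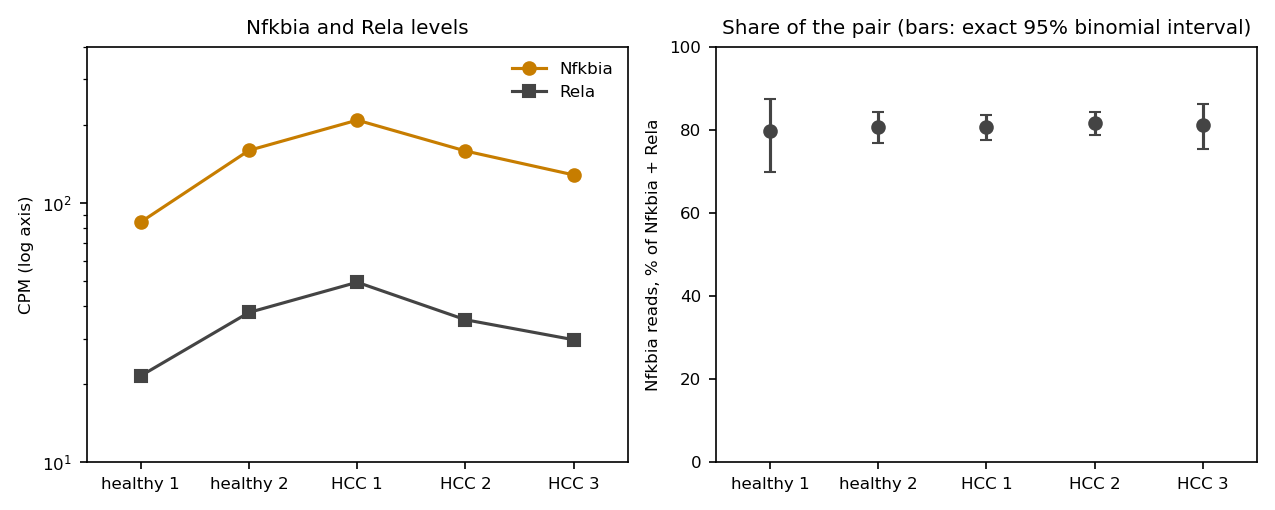
Left, CPM of Nfkbia and Rela in the 5 libraries on a log axis. Right, Nfkbia reads as a percentage of the reads of both genes, with exact 95% binomial intervals (bars). The shares lie between 79.8 and 81.7% in all 5 libraries.

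Genes that carry signals to NF-kB, and other genes that it targets, were taken as lists. Of their genes 0 passed in limma, and each list is described beside all tested genes, of which 55.2% had a log2 difference above 0, with a median of 0.08. Over all tested genes, 12.9% had each HCC value in CPM above both healthy values. Such genes were 0 of 7 in the IKK list, 3 of 10 in the T cell receptor route, 3 of 13 in the cytokine receptor route, 1 of 7 in the noncanonical route, 3 of 12 among other inhibitors and 2 of 22 among targets. In the IKK complex and its activating kinases, 3 of 7 tested genes were above 0, with a median of -0.00088. Ikbkb, the catalytic kinase of the canonical pathway, was at 28 ± 12.5 CPM in the healthy group and 29.5 ± 7.26 CPM in the HCC group. Ikbkg, the scaffold NEMO, was at 12.7 ± 4.58 and 14 ± 2.02 CPM, and the adaptor Tab2 at 48.9 ± 3.03 and 40.6 ± 7.14 CPM, with each HCC value under both healthy values. Values with ± here and in the lists that follow are SDs over 2 healthy and 3 HCC libraries.

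In the route from the T cell receptor to IKK, 7 of 10 tested genes were above 0, with a median of 0.20. Of its most abundant members, the kinase Zap70 differed little, at 75.5 ± 1.26 CPM in the healthy group and 74.5 ± 2.49 CPM in the HCC group. The adaptor Lcp2 was at 92.0 ± 16.8 and 112 ± 40.3 CPM, and the adaptor Lat at 225 ± 4.81 and 186 ± 65.5 CPM. For Lat, HCC 1 (155 CPM) and HCC 3 (142 CPM) lay below both healthy values and HCC 2 (261 CPM) above them. Bcl10, an adaptor of this route that was chosen after its values were seen, was at 0 and 13.2 CPM in the healthy and at 21.2, 27.4 and 17.0 CPM in the HCC libraries. Its groups did not overlap, and its log2 difference was 2.06 (SE 0.78, adjusted p = 0.961 in limma).

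The route from TNF, IL-1 and IL-18 receptors had 12 of 13 tested genes above 0, with a median of 0.54. Myd88, the adaptor of IL-1 and IL-18 receptors, was at 42.4 ± 19.2 and 55.1 ± 17.8 CPM. Rbck1 (HOIL-1), a subunit of the linear ubiquitin ligase, was at 43.4 ± 26.4 and 53.2 ± 16.7 CPM, and the IL-18 receptor chain Il18rap at 40.3 ± 0.277 and 54.4 ± 18.2 CPM. In the noncanonical route 6 of 7 tested genes were above 0, with a median of 0.67. Cd27 was at 57.1 ± 21.7 and 65.0 ± 11.1 CPM, and the inhibitor Traf3 at 6.92 ± 3.57 and 19.7 ± 12.6 CPM. Cd40lg, the CD40 ligand of activated T cells, varied most, at 0 and 32.4 CPM in the healthy and 24.5, 63.4 and 4.25 CPM in the HCC libraries.

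Other inhibitors and deubiquitinases had 11 of 12 tested genes above 0, with a median of 0.38. Pdlim2, which promotes degradation of nuclear RelA, was at 152 and 228 CPM in the healthy and at 288, 233 and 209 CPM in the HCC libraries, lowest in healthy 1 and highest in HCC 1 as Nfkbia was. The deubiquitinase Cyld was at 143 ± 96.0 and 182 ± 14.7 CPM, and Tnip1, a partner of A20, at 47.1 ± 33.2 and 53.7 ± 8.62 CPM. Both of these were thus more abundant than Tnfaip3.

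Of the list of NF-kB target genes, 22 of 32 were tested and 18 of these were above 0, with a median of 0.23. The most abundant, the chemokine Ccl5, was at 981 ± 44.1 and 1071 ± 170 CPM, the cyclin Ccnd2 at 818 ± 56.0 and 862 ± 40.5 CPM, and the adhesion receptor Cd44 at 142 ± 41.2 and 183 ± 24.7 CPM. Irf1, an interferon regulatory factor chosen after its values were seen, was at 36.9 and 125 CPM in the healthy and at 204, 294 and 160 CPM in the HCC libraries. Its groups did not overlap (log2 difference 1.5, SE 0.46, adjusted p = 0.961 in limma). The anti-apoptotic Bcl2l1, likewise chosen after its values were seen, had the opposite order, at 52.6 and 46.7 CPM in the healthy and 33.2, 27.9 and 34.0 CPM in the HCC libraries.

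Immediate-early and heat shock genes respond to handling of cells as well as to signals. Of the 21 in the list 15 were tested, and 13 of these were above 0, with a median of 0.60. Each HCC value lay above both healthy values in 7 of the 15, as in 12.9% of all tested genes. The tested genes below 0 were Jund and Dusp1 (log2 difference -0.53). Those not tested, all named here, were Atf3 (0 CPM in all libraries), Egr2 and Hspa1a (lower means in HCC), and Fos, Fosb and Hspa1b (higher means in HCC). Fos was above 0 only in HCC 2, at 1.16 CPM. The list summed to 740 and 1104 CPM in the healthy and to 1579, 1330 and 1098 CPM in the HCC libraries. This is the same order of libraries as that of Nfkbia apart from healthy 2, which for Nfkbia lay just above HCC 2. Hspa8, picked out above by its likeness to Nfkbia, is in this list. It gave 297 and 536 CPM of the healthy sums and 817, 564 and 459 CPM of the HCC sums. The order of the sums thus partly repeats that choice. Ier5 was at 87.2 ± 7.03 and 118 ± 13.4 CPM, and Jund at 168 ± 14.1 and 163 ± 31.4 CPM. Their part in the levels of the 10 genes was not tested.

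**Figure D5:**
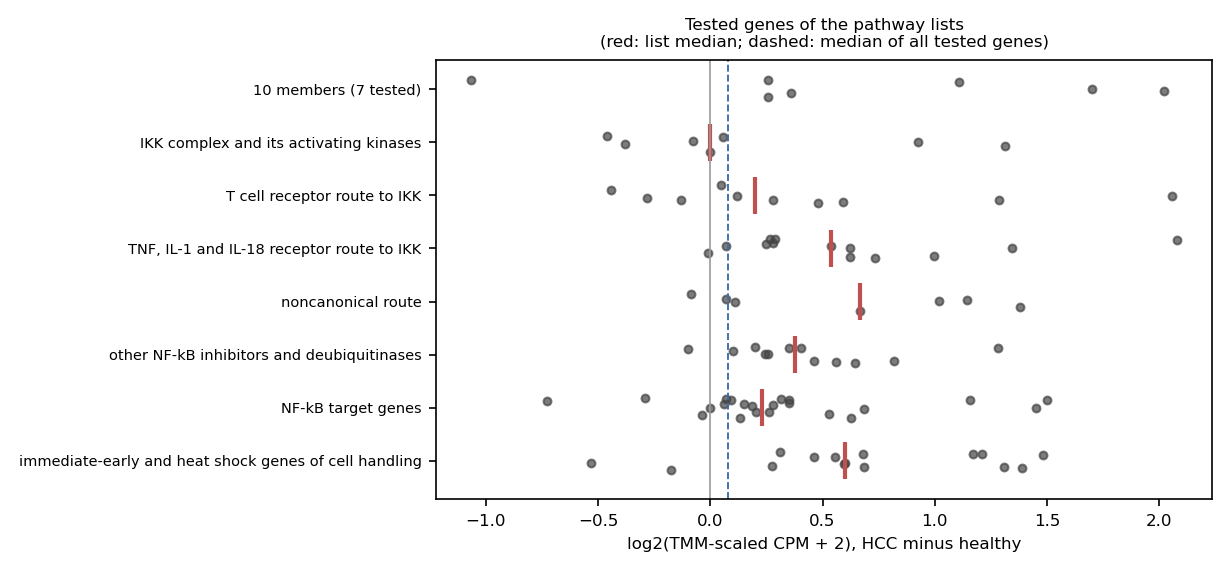
Difference between HCC and healthy libraries in log2(TMM-scaled CPM + 2) for each tested gene (points) of the 10 NF-kB genes and of the 7 lists, with list medians in red and the median of all tested genes (0.08) dashed. The points of each list spread over more than a log2 unit, and list medians run from -0.00088 to 0.67.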

How the data were processed

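RNA of sorted hepatic iNKT cells had been made into QuantSeq 3' mRNA libraries for Ion Torrent, per the labels' protocols. The submitters' processing notes list, with no roles, the aligners HISAT2 and Bowtie2, the statistical packages limma, edgeR, DESeq and DESeq2, bcl2fastq, and the build mm10. The counting program, annotation and strand setting are not given in the sources used here. The deposited values are a signal per Ensembl gene ID: the frequencies of the values show read counts multiplied by 1 factor per library and rounded. The median ratio of each table to the geometric mean over tables was 1.02 to 1.03 in all 5, as after division by size factors. These steps are read from the values and not stated by the authors. A count test had been planned. It was replaced by limma 3.58.1 (R 4.3.3) on log2(TMM-scaled CPM + 2) with a trend, since the values are not counts. Genes needed 5 CPM in 2 libraries, and p values were adjusted by Benjamini and Hochberg over all 8602. The test, this filter and the pseudocount of 2 CPM were set after the values of the 10 genes had been seen, and the other pseudocounts were added then too.

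Dividing by the factor gave approximate reads, unambiguous for the 10 genes in healthy 1 and HCC 3 and within 2 reads in the others. Shares and intervals use these reads. Symbols came from a table of gene names (55104 of 55364 IDs matched) and positions from GENCODE M21 on GRCm38, which is mm10. No 31-base word of the last 300 bases of the 10 genes' transcripts occurred in another gene. The members and lists were chosen with earlier results of these data known. Named genes were all 10 members, the 3 most abundant tested members of each list, and the 5 genes most like Nfkbia, of which 1 is not reported here, with exceptions marked. Lists got no set test, and Nfkbie and Birc3 are each in 2 lists. Alternatives were other scalings, filters and pseudocounts, voom, a replicate block, libraries left out, HCC 2 and HCC 3 summed, and marker rows taken out.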

Additional observations from a re-analysis of the deposited data

How the results depend on the processing

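The number of called genes was 0 in limma with all libraries (345 at an unadjusted p under 0.05), and 0 under 13 of the 15 alternatives. It was 2 with the replicate block, which leaves HCC 3 without a partner and so out of the difference, and from 0 to 456 when each library was left out in turn, the 456 without healthy 2. Healthy and HCC libraries share replicate numbers, and whether these mark pairs is not settled. Deviations of same-numbered healthy and HCC libraries correlated at -0.0044 and 0.13 over genes. With 2 healthy libraries the healthy deviations mirror each other, so these correlations can neither show nor exclude a pairing. In the block fit no member was called. Of the members, Nfkb1, Nfkbib and Relb kept their direction under all 15 alternatives, with log2 differences of 1.28 to 2.00, 1.00 to 3.07 and -1.64 to -0.54. Over libraries left out the log2 difference ran from -0.59 to 1.13 for Nfkb2, -0.046 to 0.60 for Rela, -0.0088 to 0.77 for Nfkbia and -0.53 to 2.75 for Nfkbid, with each lowest value, of reversed sign, without healthy 1 and each highest without healthy 2. With limma-voom on approximate reads Nfkb2 was at -0.40 and Nfkbid at 0.081, and Nfkbid was at 1.97 and 0.66 with pseudocounts of 0.5 and 5 CPM. The cause was not tested. With HCC 2 and HCC 3 summed, Nfkb1 was at 1.91 and Nfkbib at 2.02. The difference in the inhibitor share ran from -1.61 (without healthy 1) to 12.2 percentage points (without healthy 2) over libraries left out. It was 16.5 points with Nfkbia left out, where the share in healthy 1 was 1.92%, from 1 of 52 reads. That in healthy 2 was 31.7%, within the range of the HCC libraries. The median of the IKK list ran from -0.31 to 0.35, and the medians of the other 6 lists were above 0 under all 15 alternatives but moved in size. That of other inhibitors was 0.084 without HCC 2 and 0.61 without HCC 3, and that of the T cell receptor route 0.039 without healthy 2 and 0.40 without healthy 1. The DESeq2 and edgeR count models were not run, since the values are not counts. The 2 healthy libraries, the shallow one included, limit every difference here.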
